A study of Mus musculus with 9 samples.

Results

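The 10 genes described here are markers of adventitial fibroblasts, the connective tissue cells of the outer layer of the artery: Pi16, Dpt, Clec3b, Cd34, Gsn, Pdgfra, Serping1, Pcolce, Entpd2 and Dpep1. They were fixed by name. All probe sets that the platform annotation pairs with exactly 1 gene, that gene being 1 of the 10, were taken, which gave 20 of the 34945 such probe sets and 10 of 18193 genes. The probe set with the highest mean over all arrays stands for its gene and is called its main probe set. These are 1453839_a_at for Pi16, 1418511_at for Dpt, 1449466_at for Clec3b, 1416072_at for Cd34, 1437171_x_at for Gsn, 1421917_at for Pdgfra, 1416625_at for Serping1, 1437165_a_at for Pcolce, 1418259_a_at for Entpd2 and 1435943_at for Dpep1. The values are log2 expression from 9 Affymetrix arrays of total aortic RNA, all from male mice. There were 5 arrays labelled BMAL+/+ (F01, F04, F07, F09 and F10) and 4 labelled BMAL-/- (F02, F03, F05 and F08), the latter from mice without a working gene for BMAL1, the activator of the circadian clock. All mice were only partially backcrossed onto C57Bl/6J, so the genetic background was mixed in both groups. They were kept in 12 h light and 12 h darkness for at least 2 weeks and then in darkness for at least 30 h, and were killed at ZT14 (2 h into the former night). No age is given in the sources used here. The vessels were flushed through the heart, dissected and frozen without separating their layers, so every cell type of the wall and of adhering tissue could contribute RNA. One label calls them thoracic aortas, whereas the protocol describes a dissection from the arch to beyond the femoral branches.

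Adventitial fibroblasts make and maintain the collagen-rich sheath of the vessel, sense growth factors and damage, and include progenitor-like cells. Pi16 and Dpt mark a fibroblast state found in the connective tissue of many organs, around vessels in particular, and Cd34, Clec3b and Pdgfra are usually found with them. None of the 10 is wholly restricted to fibroblasts: Cd34 is also made by endothelium, Gsn by smooth muscle and fat cells, and Entpd2 by glial cells. In bulk tissue, fewer fibroblasts and less RNA per fibroblast cannot be told apart.

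BMAL1 binds the E-box, CACGTG, and it was asked whether the start regions of these genes hold that sequence. RefSeq start regions of build GRCm38.p6 were at hand for 8 of the 10 genes, with 10 start sites in all, and the 250 bases before each start site were searched on both strands. None of the 10 regions held CACGTG, which 6.02% of all 32851 such regions hold. The variant CACGTT, which differs from the E-box in its last base, was found in 1 of the 10, that of Entpd2, and in 3.85% of all regions. The D-box TTATGTAA (0.819% of all regions) and the nuclear receptor half-site AGGTCA (14% of all regions), bound by factors of the clock's other loops, were in none of the 10. The TATA box TATAAA, searched on the forward strand only (7.59% of all regions), was in none either. CACGTG and CACGTT share their first 5 bases and cannot match at the same place on 1 strand, and a match or its lack is a description of these letters only. The regions of Dpt and Cd34 are shown because these genes had large differences between the arrays, and that of Entpd2 because it holds CACGTT, in capitals (on the opposite strand AACGTG), at 161 and at 16 bases before the start. The first lies at chr1:164796413-164796662, the second at chr1:194938571-194938820 and the third at chr2:25395624-25395873, all on the plus strand, directly before the annotated gene.
Dpt: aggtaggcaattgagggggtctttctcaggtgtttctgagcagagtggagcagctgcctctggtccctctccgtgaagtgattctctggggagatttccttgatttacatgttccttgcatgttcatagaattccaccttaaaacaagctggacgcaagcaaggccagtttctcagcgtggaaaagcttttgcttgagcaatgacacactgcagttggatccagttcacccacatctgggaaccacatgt
Cd34: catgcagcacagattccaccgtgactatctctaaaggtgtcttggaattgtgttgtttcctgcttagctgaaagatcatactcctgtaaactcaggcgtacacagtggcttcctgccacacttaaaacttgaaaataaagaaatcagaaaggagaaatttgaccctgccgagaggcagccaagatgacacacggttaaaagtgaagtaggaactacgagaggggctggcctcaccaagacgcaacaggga
Entpd2: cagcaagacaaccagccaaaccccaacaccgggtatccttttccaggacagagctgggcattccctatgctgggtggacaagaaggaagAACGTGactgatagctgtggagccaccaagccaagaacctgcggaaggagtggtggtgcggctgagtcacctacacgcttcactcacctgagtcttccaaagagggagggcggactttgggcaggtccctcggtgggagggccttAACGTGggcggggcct

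Several arrays stood apart or went against their labels. F01 is BMAL+/+ by title and strain and BMAL-/- by source name, and it was kept in BMAL+/+. At the clock gene Npas2, F04 (BMAL+/+) read 8.36, as F02, F03 and F08 did (7.90 to 8.52), whereas F05 (BMAL-/-) read 3.40, as the other BMAL+/+ arrays did (3.37 to 3.40). Each result on the 10 genes is therefore given for the 9 arrays as labelled and for the 7 arrays without F04 and F05 (4 BMAL+/+ and 3 BMAL-/-), and both comparisons share those 7 arrays. A second split ran across the genotype labels. The arrays on 1 side of it, F02, F03 and F04, all read high at Npas2. The arrays carry control probe sets at the 3' and 5' ends of the Actb and Gapdh transcripts, whose difference grows where RNA is broken or cDNA is short. For Gapdh the 3' minus 5' difference was 3.31 on F02, 2.88 on F03 and 3.01 on F04, and -0.13 to 1.26 on the 6 other arrays. For Actb it was 4.24, 4.20 and 3.91, against 1.38 to 2.72. F02 and F03 are labelled BMAL-/- and F04 is labelled BMAL+/+, so that 2 of the 3 BMAL-/- arrays and none of the 4 BMAL+/+ arrays of the smaller comparison had the large difference. Array medians were 3.13 to 3.24.

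In BMAL-/- aorta the adventitial fibroblast genes read lower on most main probe sets, but none passed the test. Over the 9 arrays, 8 of 10 genes were lower in BMAL-/- and 2, Pdgfra and Pcolce, were higher, with a median difference (BMAL-/- minus BMAL+/+, log2) of -0.24. That median was -0.075 without F03, -0.41 without F05, 0.091 with array weights and 0.076 with F02, F03 and F04 left out. Over all 18193 genes the median was 0.030 and 33.6% were lower (31.3% of all probe sets), a share of 47.5% among genes above the median brightness. In limma, after Benjamini-Hochberg correction across the 45037 probe sets, 0 of the 10 genes and 0% of all probe sets passed, and the unmoderated F-test that the series' design names likewise called 0. At an unadjusted p under 0.05 limma called 0 of the 10, against 8.67% of all probe sets (0.75% lower and 7.92% higher). The 10 adjusted p lay between 0.37 and 0.922. The unadjusted count of 0 became 2 without F04 (Pi16 and Dpt), where 2.39% of all probe sets were called lower and 20.6% higher, and 3 without F05 (Dpt, Cd34 and Gsn), where 2.12% were called lower and 8.73% higher. At none of the 10 main probe sets did the groups separate, against 0.127% of all probe sets that were lower and 0.646% that were higher without overlap. The excess of higher over lower calls among all probe sets depended on the scaling: at that p 338 were lower and 3565 higher as deposited, 681 and 1137 after quantile normalization, and 507 and 582 after centring, while 8 of the 10 genes were lower under each.

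Without F04 and F05, the same 8 genes were lower, the median difference was -0.44 (-0.20 with F02 and F03 left out), against 0.043 over all genes, and 31.9% of all genes were lower (30.1% of all probe sets, and 45.8% of genes above the median brightness). None of the 10 passed in limma, where 0.00888% of all probe sets did, nor in that F-test, and the adjusted p lay between 0.208 and 0.888. At an unadjusted p under 0.05, 4 genes were lower, Pi16, Dpt, Cd34 and Gsn, against 3.7% of all probe sets, and 0 were higher, against 20% of all (23.7% in either direction). When only probe sets above the median brightness were tested, the same 4 were lower, against 7.25% lower and 6.89% higher. The groups did not overlap at 3 of the 10, Pi16, Dpt and Gsn, all lower in BMAL-/-, against 2.59% of all probe sets that were lower and 14.9% that were higher without overlap. Of the 22518 probe sets above the median brightness, 1134 were lower and 1702 higher without overlap. The outcome of the test turned on F08: without it, Pi16, Dpt, Cd34 and Gsn passed, at differences of -3.57, -2.33, -1.71 and -0.50, in a comparison of 4 arrays with F02 and F03 in which 3.93% of all probe sets passed as lower and 36.5% passed in all. With array weights 5 passed, the same 4 and Serping1, and 4.24% of all probe sets passed as lower and 34.3% in all.

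**Figure D1:**
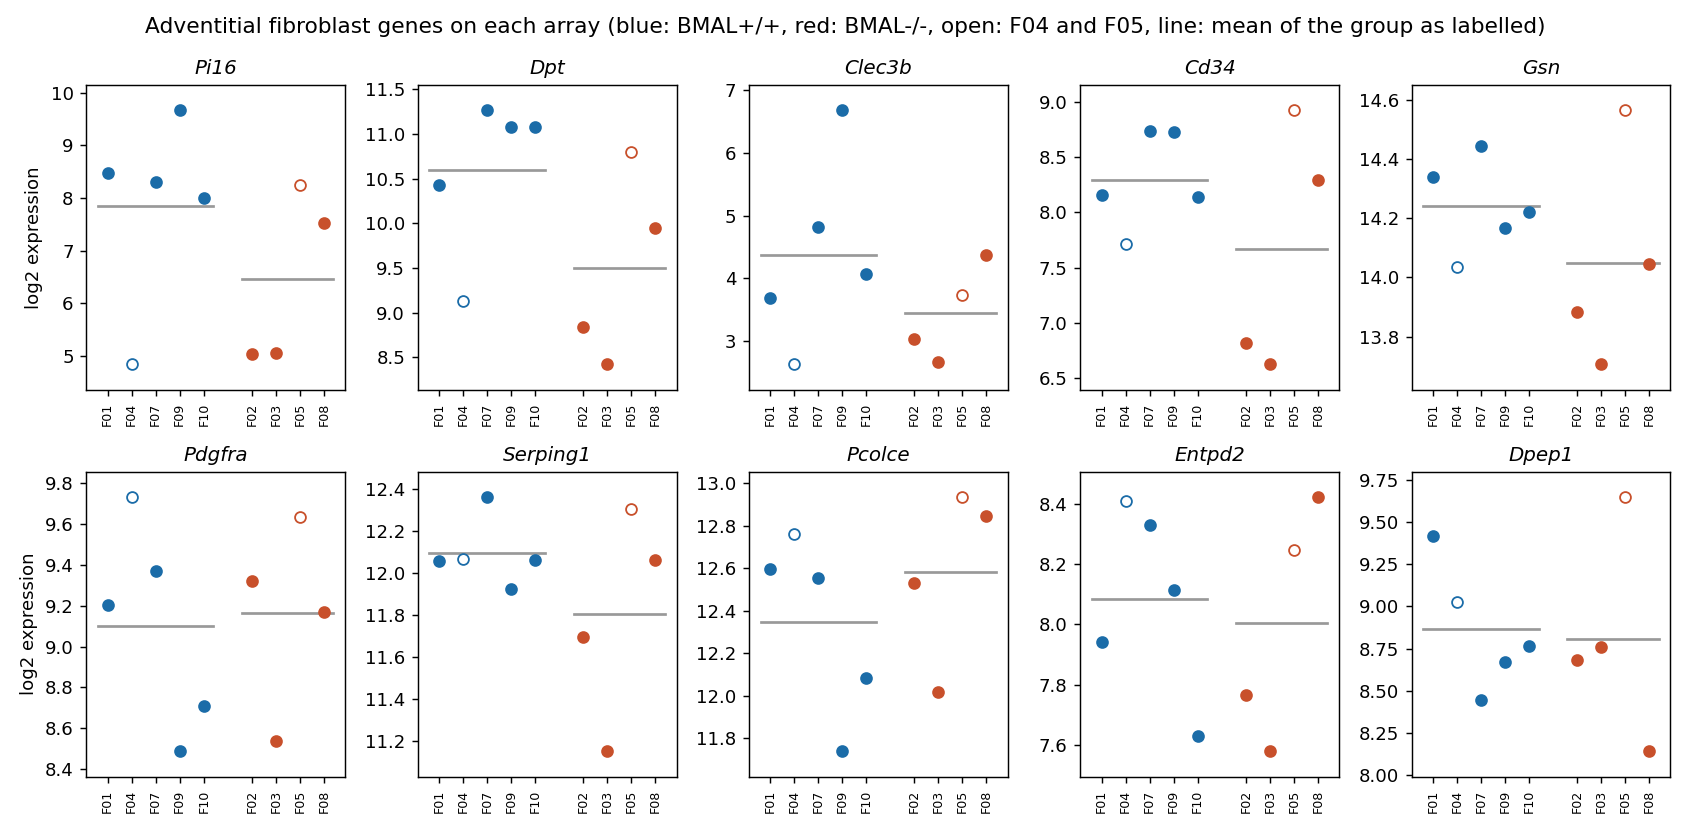
Log2 expression of the 10 genes at the main probe set of each, 1 point per array, by labelled genotype, with the group mean as a line and F04 and F05 as open points; each panel has its own axis. In the upper row F02, F03 and F04 are the 3 lowest arrays of every gene, and in the lower row of none.

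Among the secreted proteins, Pi16 and Dpt had the largest differences. Pi16, a secreted or membrane-bound peptidase inhibitor of the CAP family, read 8.47 on F01, 8.30 on F07, 9.67 on F09, 8.001 on F10 and 4.83 on F04 in BMAL+/+, and 5.04 on F02, 5.05 on F03, 8.25 on F05 and 7.52 on F08 in BMAL-/-. F02, F03 and F04 lay close together, below the BMAL-/- array F08 and all others, and the groups overlapped. The means were 7.85 ± 1.80 (SD, n = 5) and 6.46 ± 1.67 (SD, n = 4), a difference of -1.39 ± 1.05 (SE). Without F04 and F05 it was -2.74 ± 0.71 (SE), or 6.68-fold lower (adjusted p = 0.208 in limma).

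Dpt, dermatopontin, a matrix protein that binds decorin and helps collagen fibrils form, read 10.43 on F01, 11.26 on F07, 11.08 on F09, 11.07 on F10 and 9.13 on F04, against 8.84 on F02, 8.42 on F03, 10.80 on F05 and 9.95 on F08. Again the lowest arrays were F03, F02 and F04, and F08 lay between these and the rest. The means were 10.59 ± 0.88 (SD, n = 5) and 9.50 ± 1.08 (SD, n = 4), a difference of -1.09 ± 0.59 (SE). Without F04 and F05 it was -1.89 ± 0.39 (SE), or 3.71-fold lower (adjusted p = 0.208 in limma).

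Clec3b, tetranectin, a plasminogen-binding lectin, read 3.69 on F01, 4.81 on F07, 6.68 on F09, 4.06 on F10 and 2.62 on F04, and 3.03 on F02, 2.67 on F03, 3.73 on F05 and 4.36 on F08. It was the gene nearest the floor: F02, F03 and F04 read below the median of their arrays, whereas the other 9 genes read above it on every array. F09 stood above all other arrays, and the groups overlapped. The means were 4.37 ± 1.51 (SD, n = 5) and 3.45 ± 0.75 (SD, n = 4). The difference was -0.92 ± 0.75 (SE) over 9 arrays and -1.46 ± 0.78 (SE) over 7 (adjusted p = 0.485 and 0.247 in limma), and -0.35 and -0.83 without F09. So near the floor no fold is given.

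Pcolce, an enhancer of the proteinase that trims procollagen, showed no such order at its main probe set. It read 12.60 on F01, 12.55 on F07, 11.74 on F09, 12.09 on F10 and 12.76 on F04, and 12.53 on F02, 12.02 on F03, 12.93 on F05 and 12.84 on F08. The means were 12.35 ± 0.42 (SD, n = 5) and 12.58 ± 0.41 (SD, n = 4), and the difference of 0.24 ± 0.26 (SE) was smaller than the spread of either group. It was 0.22 ± 0.28 (SE) over 7 arrays.

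Of the surface proteins, Cd34, a sialomucin of progenitor cells and endothelium, followed the first order and Pdgfra did not. Cd34 read 8.16 on F01, 8.74 on F07, 8.72 on F09, 8.14 on F10 and 7.71 on F04, and 6.82 on F02, 6.63 on F03, 8.92 on F05 and 8.29 on F08. F02 and F03 lay more than 1 log2 unit under F08, which itself lay within the BMAL+/+ range. The difference was -0.63 ± 0.49 (SE) over 9 arrays and -1.19 ± 0.43 (SE) over 7 (adjusted p = 0.47 and 0.208 in limma). Over 9 arrays it was -0.28 without F03 and -0.35 without F02.

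Pdgfra, the receptor of platelet-derived growth factor on fibroblasts, read 9.20 on F01, 9.37 on F07, 8.49 on F09, 8.71 on F10 and 9.73 on F04, and 9.32 on F02, 8.54 on F03, 9.63 on F05 and 9.17 on F08. The highest and the lowest array were both BMAL+/+. The means were 9.10 ± 0.50 (SD, n = 5) and 9.17 ± 0.46 (SD, n = 4), and the difference was 0.065 ± 0.30 (SE) over 9 arrays and 0.067 ± 0.29 (SE) over 7, of no settled sign when arrays were left out.

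Neither surface enzyme separated the groups at its main probe set. Entpd2, which hydrolyses extracellular ATP, read 7.94 on F01, 8.41 on F04, 8.33 on F07, 8.11 on F09 and 7.63 on F10, and 7.77, 7.58, 8.25 and 8.42 on F02, F03, F05 and F08. The lowest and the highest array were both BMAL-/-. The difference was -0.081 ± 0.23 (SE) over 9 arrays and -0.081 ± 0.26 (SE) over 7. Dpep1, a membrane dipeptidase that acts on glutathione products and leukotrienes, read 9.42 on F01, 9.03 on F04, 8.45 on F07, 8.67 on F09 and 8.77 on F10, and 8.68, 8.76, 9.65 and 8.14 on F02, F03, F05 and F08. Its differences were -0.058 ± 0.31 (SE) and -0.30 ± 0.28 (SE). At both main probe sets the groups overlapped and the differences were smaller than the spread among arrays.

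Serping1, the C1 inhibitor, which restrains complement and the contact system, read 12.06 on F01, 12.36 on F07, 11.92 on F09, 12.06 on F10 and 12.07 on F04, and 11.70 on F02, 11.15 on F03, 12.30 on F05 and 12.06 on F08. Only F03 and F02 lay below the BMAL+/+ arrays, and F04 lay among them. The difference was -0.29 ± 0.22 (SE) over 9 arrays and -0.46 ± 0.23 (SE) over 7 (adjusted p = 0.458 and 0.226 in limma). Without F03 alone it was -0.073 and -0.22.

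Gsn, gelsolin, which severs actin filaments inside cells and clears actin in plasma, was bright on every array. Its main probe set read 14.34 on F01, 14.44 on F07, 14.17 on F09, 14.22 on F10 and 14.04 on F04, and 13.88 on F02, 13.71 on F03, 14.56 on F05 and 14.05 on F08. The 4 lowest arrays, F03, F02, F04 and F08, were those of Dpt. The difference was -0.19 ± 0.17 (SE) over 9 arrays and -0.41 ± 0.11 (SE), or 1.33-fold lower, over 7 (adjusted p = 0.208 in limma). Over 9 arrays it was -0.077 without F03.

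**Figure D2:**
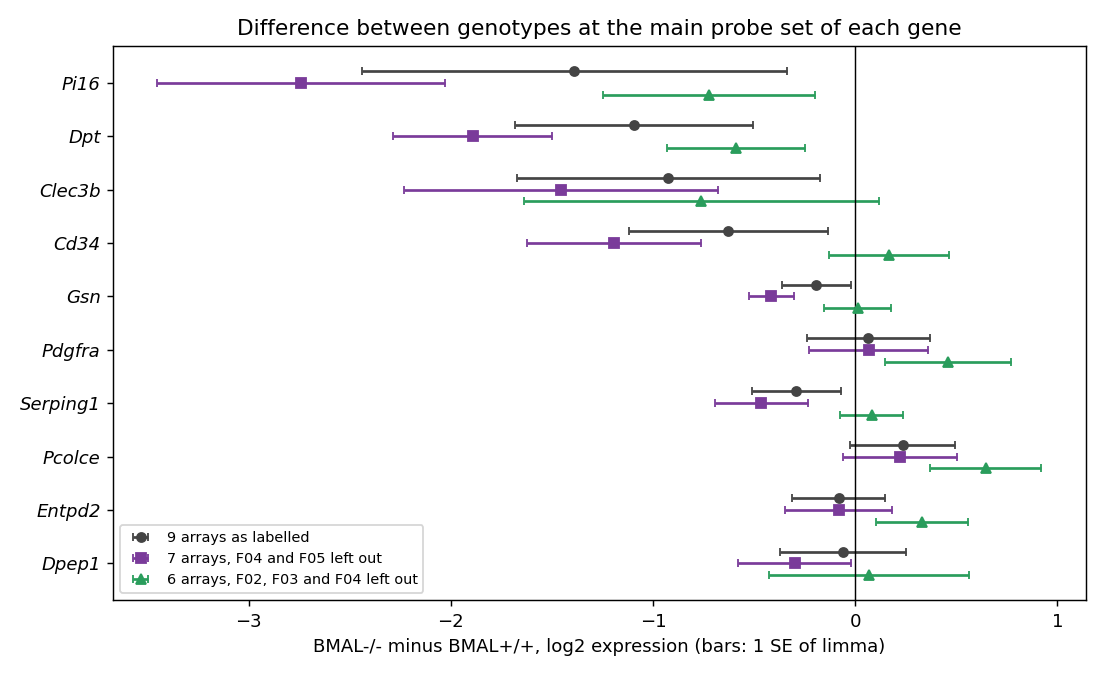
Difference between the genotypes (BMAL-/- minus BMAL+/+, log2, with 1 SE of limma) at the main probe set of each gene, for the 9 arrays as labelled, the 7 without F04 and F05, and the 6 without F02, F03 and F04. Pi16 has the largest difference in the 7 arrays, at -2.74, and -0.72 in the 6.

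A part of the list thus shared an order of arrays that was not the order of the genotype labels. At 5 of the 10 main probe sets, Pi16, Dpt, Clec3b, Cd34 and Gsn, the 3 lowest arrays were F02, F03 and F04, an order that was noted after the values were seen. It occurred at 5.07% of all 45037 probe sets and at 9.97% of those above the median brightness. The order was not particular to fibroblast genes. It was found at 5 of 10 smooth muscle markers, 4 of 10 macrophage markers, 4 of 8 adipocyte markers and 6 of 16 procollagen processing genes. Of the endothelial markers 2 of 10 had it, and 0 of 9 heart muscle, 0 of 9 skeletal muscle and 0 of 9 lymphocyte markers did. F02, F03 and F04 are the 3 arrays with the largest 3' minus 5' control signal. They also read high at the clock gene Npas2 (7.90 to 8.36), as F08 did (8.52). For these 3 arrays the control signal and the state of the clock gene cannot be told apart. At Pi16, Dpt and Gsn F08 was the next lowest array, and at Clec3b and Cd34 it was not. The part of either in the result was not tested beyond the following values. With the signal as a covariate in limma, the differences over 9 arrays were -0.33 ± 0.57 (SE) for Pi16, -0.48 ± 0.28 (SE) for Dpt, -0.17 ± 0.32 (SE) for Cd34 and -0.080 ± 0.15 (SE) for Gsn. Over 7 arrays they were -1.47 ± 0.66 (SE) for Pi16, -1.07 ± 0.23 (SE) for Dpt, -0.34 ± 0.32 (SE) for Cd34 and -0.32 ± 0.14 (SE) for Gsn, none past the threshold. Dpep1 moved away from 0 with the covariate. Its difference went from -0.058 to -0.14 ± 0.34 (SE) over 9 arrays and from -0.30 to -0.78 ± 0.26 (SE) over 7, also not past the threshold. With F02, F03 and F04 left out, which compares 4 BMAL+/+ arrays with F05 and F08, 3 of 10 genes were lower and 7 higher. Pi16 then differed by -0.72 ± 0.52 (SE), Dpt by -0.59 ± 0.34 (SE) and Clec3b by -0.76 ± 0.88 (SE), while Cd34 differed by 0.17 ± 0.30 (SE) and Gsn by 0.013 ± 0.17 (SE). Both alternatives were chosen after the control probe sets were seen.

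**Figure D3:**
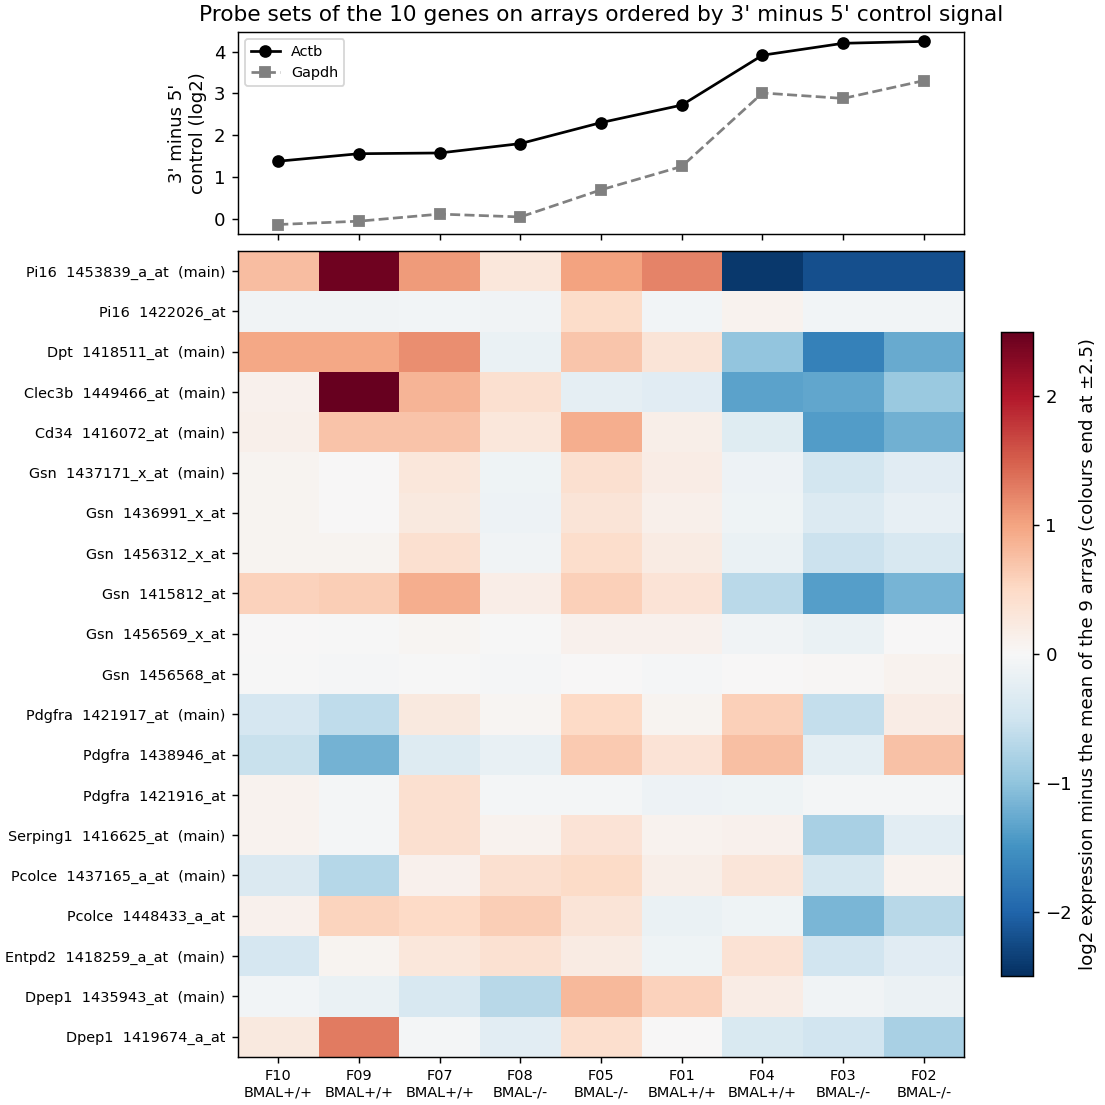
Upper panel: 3' minus 5' difference (log2) of the Actb and Gapdh control probe sets on each array, with the arrays in rising order of their mean. Lower panel: log2 expression of all 20 probe sets of the 10 genes, each minus its mean over the 9 arrays, as a heat map; the 3 arrays on the right, F04, F03 and F02, are the lowest ones for Pi16, Dpt and probe set 1415812_at of Gsn.

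Different probe sets of 1 gene did not tell the same story. Gsn has 6. Over 7 arrays the 3 brightest, all with the suffix for probes shared between sequences, differed by -0.41, -0.34 and -0.54, and probe set 1415812_at by -1.40 ± 0.37 (SE). On the latter F02, F03 and F04 read 11.66, 11.44 and 12.13 and the other arrays 12.98 to 13.72. The 2 dim ones, 1456569_x_at and 1456568_at, differed by -0.094 and 0.054. For Pcolce the main probe set differed by 0.22 and the other, 1448433_a_at, by -0.66 ± 0.43 (SE), with 7.48 on F02, 7.05 on F03 and 8.02 to 8.79 elsewhere. For Dpep1 the values were -0.30 and, at 1419674_a_at, -0.89 ± 0.36 (SE), where F02, F03 and F04 were again the 3 lowest arrays. At 1419674_a_at the groups did not overlap over 7 arrays, against 2.59% of all probe sets that were lower without overlap. Its unadjusted p was 0.0418 and its adjusted p 0.208 in limma. The 3 probe sets of Pdgfra differed by 0.067, 0.53 and -0.13. The second of Pi16 read between 3.45 and 3.99 on all arrays, near the floor, and differed by 0.0072. Where these probe sets lie along their transcripts was not analysed here.

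**Figure D4:**
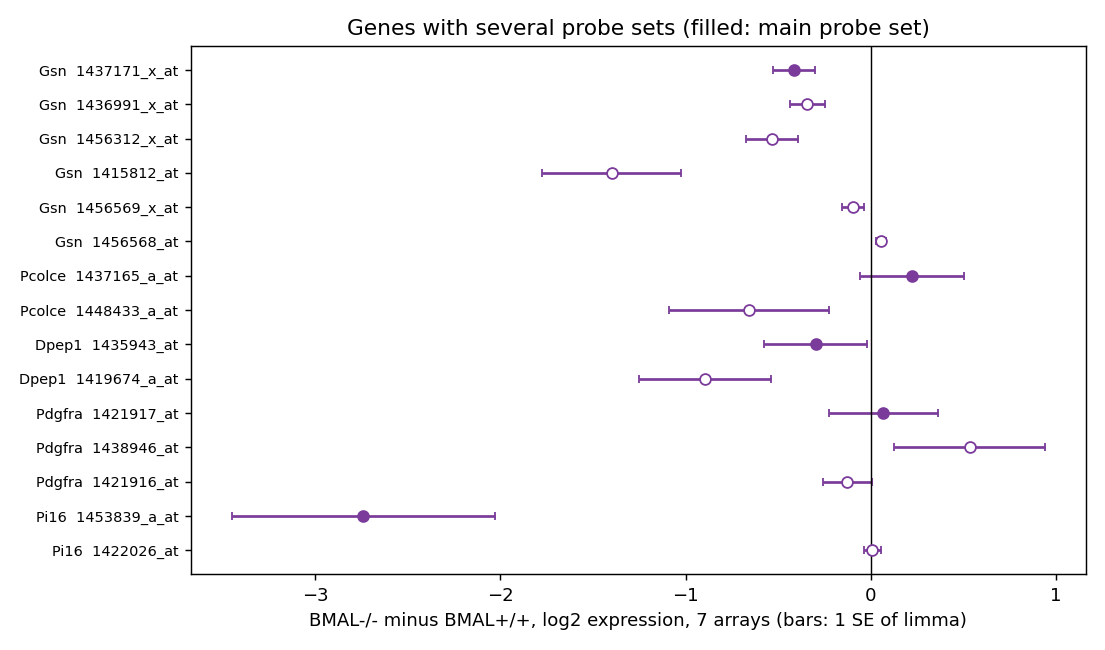
Difference between the genotypes (BMAL-/- minus BMAL+/+, log2, with 1 SE of limma) over 7 arrays at every probe set of the 5 genes with more than 1; filled points are the main ones. The probe sets of Gsn range from -1.40 to 0.054, and those of Pcolce lie on both sides of 0.

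Other fibroblast genes were lower on most main probe sets too. Of 30 other adventitial fibroblast genes 27 had a probe set paired with that gene alone. Over 9 arrays 22 were lower and 5 higher in BMAL-/-, with a median of -0.51, and over 7 arrays 23 were lower and 4 higher, with a median of -0.84. F02, F03 and F04 were the 3 lowest arrays at 8 of the 27. None passed the adjusted threshold in limma. At an unadjusted p under 0.05 there were 2 lower and 1 higher over 9 arrays and 13 lower and 1 higher over 7, where 4.13% of all genes were lower and 18.2% higher at that p (0.731% and 6.52% over 9 arrays). With F02, F03 and F04 left out, 20 were lower and 7 higher, with 0 lower and 1 higher at that p, against 0.402% and 3.05% of all probe sets, and a median of -0.13. Without F02 and F03, which leaves F08 alone against 4 arrays and assumes for it the spread of the others, the count was 4 lower and 1 higher, against 1.47% and 3.14% of all probe sets, and the median -0.28.

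Decorin, Dcn, the partner of dermatopontin on collagen, had the smallest p of that list over 7 arrays. It read 12.39 on F01, 12.56 on F07, 12.41 on F09, 12.42 on F10 and 11.91 on F04, and 11.18 on F02, 11.12 on F03, 12.61 on F05 and 11.51 on F08. Here F08 lay with F02 and F03, below every BMAL+/+ array, and F05 above every one. The difference was -0.73 over 9 arrays and -1.17 ± 0.13 (SE) over 7 (adjusted p = 0.37 and 0.121 in limma). Abca8a, a lipid transporter, differed by -0.57 and by -1.29 ± 0.28 (SE). Ackr3, a scavenging chemokine receptor, went the other way, by 0.77 over 9 arrays and 0.998 ± 0.17 (SE) over 7. It read 10.81 to 11.21 on the 4 BMAL-/- arrays and 9.86 to 10.34 on the BMAL+/+ arrays except F04, which read 11.33. Neither passed (adjusted p = 0.208 over 7 arrays).

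None of the genes that work beside the members passed the adjusted threshold in limma. Of 16 measured genes of procollagen processing, the partners of Pcolce, 11 were lower over both sets of arrays, with medians of -0.081 and -0.13. This direction turned without the arrays of largest control signal: with F02, F03 and F04 left out 4 were lower and 12 higher (median 0.23), over 7 arrays without F02 and F03 5 and 11 (median 0.28), and over 7 arrays with the covariate 4 and 12 (median 0.11). At an unadjusted p under 0.05, 4 were lower and 1 higher over 7 arrays, among them the lysyl hydroxylases Plod1 (-1.78 ± 0.49, SE) and Plod2 (-1.28 ± 0.44, SE) and the prolyl hydroxylase subunit P4ha1 (-1.05 ± 0.40, SE). Of 19 complement genes, the setting of Serping1, 12 were lower, with medians of -0.17 and -0.34 (-0.19 with F02, F03 and F04 left out), and 6 were lower and 2 higher at that p over 7 arrays. Of all genes 4.13% were lower and 18.2% higher at that p over 7 arrays. C1ra, a serine proteinase that the C1 inhibitor blocks, differed by -1.52 ± 0.47 (SE), C1qc, a recognition subunit made by macrophages, by -2.58 ± 0.56 (SE), and Kng1, a kininogen, by 2.03 ± 0.54 (SE).

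Among the 6 other ligands and receptors of the PDGF system the medians were 0.023 and -0.11. Pdgfc, a ligand of Pdgfra, differed by -0.33 over 9 arrays and -0.77 ± 0.23 (SE) over 7 (unadjusted p = 0.0119, limma), whereas Pdgfa differed by -0.046 and -0.23. Of 10 actin-severing and actin-binding relatives of Gsn, 8 were lower over 9 arrays and 7 over 7, with medians of -0.091 and -0.062. Dstn, an actin-severing protein, and Tmsb4x, which sequesters actin monomers, differed by -0.95 ± 0.33 (SE) and -1.27 ± 0.51 (SE) over 7 arrays. The 15 ectonucleotidase and purine receptor genes around Entpd2 were divided, 8 lower and 7 higher over 9 arrays (medians -0.0039 and 0.013), as were the 7 peptidases around Dpep1 (3 lower and 4 higher, medians 0.015 and 0.058). The 8 measured CAP relatives of Pi16 had medians of 0.094 and 0.098, with 2 lower and 6 higher. The 4 relatives and ligands of Cd34 all had differences below 0, the lowest of them -0.24, and the 9 partners of Dpt and relatives of Clec3b had medians of 0.033 and -0.027. Medians this near 0 did not keep their sign under other scalings: over 9 arrays centring gave -0.017 for the PDGF list, -0.025 for the peptidases and -0.0072 for the last list, and over 7 arrays quantile normalization gave 0.033 for the relatives of Gsn. Fn1, fibronectin, in that last list, differed by -1.02 ± 0.28 (SE) over 7 arrays.

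Markers of other cells differed between the groups as well. All 10 smooth muscle markers were lower over both sets of arrays, with medians of -0.51 and -0.83, and so were all 10 macrophage markers, with medians of -0.72 and -1.04. After quantile normalization of the 9 arrays 9 smooth muscle markers were lower. No marker passed the adjusted threshold in limma. At an unadjusted p under 0.05 over 7 arrays, 4 smooth muscle and 6 macrophage markers were lower and 0 of either list higher. Of the endothelial markers 3 were lower and 1 higher at that p, and of the pericyte markers 2 and 0. Of all genes 4.13% were lower and 18.2% higher there. Over 9 arrays 0 smooth muscle and 0 macrophage markers were called at that p. The summed smooth muscle level (log2 of the sum of linear values) was 15.18 to 15.97 in BMAL+/+ and 14.76 to 15.78 in BMAL-/-, with F03, F02 and F04 the lowest arrays, and none of those markers was below the array median throughout. With F02, F03 and F04 left out, 5 smooth muscle markers were lower and 5 higher, whereas all 10 macrophage markers were still lower. The summed macrophage level was 11.69 to 13.12 in BMAL+/+ and 10.94 to 12.40 in BMAL-/-, lowest on F03, F08 and F04. Of 10 endothelial markers, a second source of Cd34, 8 were lower over 9 arrays and 7 over 7 (sums of 10.67 to 11.56 against 10.48 to 11.26), with medians of -0.31 and -0.40 and the highest sum on F04. Of 7 pericyte markers 6 and 7 were lower (13.15 to 13.95 against 12.59 to 14.02), with medians of -0.16 and -0.37.

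Some tissue in the dissections differed by single arrays. The summed lymphocyte level, with Cd3e below the array median throughout, was 10.50 on F10 and 9.42 on F02 and 6.35 to 6.54 elsewhere. Of the fibroblast list, Thy1 and Cd55, which lymphocytes also make, were highest on these arrays. Thy1 read 7.67 on F02 and 6.91 on F10, and Cd55 read 8.98 on F10 and 7.47 on F02. Dpp4, also of the fibroblast list, was highest on F10 and F02 as well. Brown fat markers, 5 of 8 lower over both sets of arrays, with medians of -0.26 and -0.29, summed to 14.40 to 15.97 in BMAL+/+ and 14.03 to 15.44 in BMAL-/-, with the highest value on F09, the array on which Pi16 and Clec3b were highest. At an unadjusted p under 0.05 in limma, 2 of these markers were higher and 0 lower over both sets. Of all genes 6.52% were higher and 0.731% lower at that p over 9 arrays, and 18.2% and 4.13% over 7. With the 3' minus 5' covariate 2 brown fat markers were lower and 6 higher over 9 arrays (median 0.11), and 0 and 8 over 7 (median 0.40). With F02, F03 and F04 left out 4 were lower and 4 higher (median 0.016). Of 8 adipocyte markers 6 were lower over 9 arrays and 5 over 7, with medians of -0.13 and -0.24 (15.79 to 16.47 against 15.76 to 16.15). Of 9 heart muscle markers 8 were lower over 9 arrays and 9 over 7, with medians of -0.88 and -1.95 (10.12 to 13.77 against 10.44 to 13.98). Of 9 skeletal muscle markers 8 were higher over both, with medians of 0.75 and 1.34 (8.11 to 14.91 against 11.45 to 15.25). The 8 neuron and Schwann cell markers, with Pmp2 below the array median throughout, summed to 8.92 to 11.53 and 8.85 to 10.69, and the 3 of red blood cells to 6.00 to 9.17 and 6.57 to 8.51. The 9 mesothelial markers summed to 6.22 to 6.59 and 6.42 to 6.63, with Krt8 and Muc16 below the array median throughout. The part of these tissues in the fibroblast results was not tested.

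The mean profile of the 10 genes, each centred and scaled over the 9 arrays, was highest on F05 (0.92) and F07 (0.61), and lowest on F03 (-1.34) and F02 (-0.69), while F04, low at Pi16, Dpt and Clec3b and the highest array at Pdgfra, lay at -0.03. Among 11170 other genes above the median brightness, those with the profile most like it by Pearson correlation over the 9 arrays, given as a description, were Eml1 (r = 0.98), a microtubule-binding protein, Emilin2 (r = 0.98), an elastic fibre glycoprotein, F3 (r = 0.97), tissue factor, which starts clotting and is made by adventitial cells, Cd248 (r = 0.96), endosialin, a surface protein of fibroblasts and pericytes, and Ddr2 (r = 0.96), a collagen receptor of fibroblasts. F3 read 9.56 to 10.19 in BMAL+/+ and 9.23, 8.75, 10.62 and 9.84 on F02, F03, F05 and F08, and Cd248 read 5.58 to 6.42 and 4.91, 4.57, 6.62 and 6.20. For both, the low arrays were F02 and F03, and F05 was the highest of all 9.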

How the data were processed

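Total RNA of 9 aorta samples was measured on 1 Affymetrix array each. The authors deposited log2 expression values for 45101 probe sets. GCRMA and MAS5 are named in the submitters' processing notes, without a role, and the settings and detection flags are not given in the sources used here. GCRMA-like values have a dense floor, near which differences are compressed. The 64 control probe sets were left out of the tests, and those of Actb and Gapdh were used for the 3' minus 5' signal. The annotation pairs 34945 probe sets with 1 gene and 932 with several, and 9160 are not listed. Symbols were updated through gene identifiers.

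Genotype alone was modelled at all 45037 probe sets with limma 3.58.1 in R 4.3.3 (eBayes with a trend), two-sided, with Benjamini-Hochberg adjustment and a threshold of 0.05. It was also run on simulated data with independent noise. These lacked the splits among arrays described above and so cannot show how the splits affect the results. The series' design text calls the samples biological replicates but ties none to a named animal, so p-values measure the spread between these samples, whose number limits the precision. Plots were drawn with matplotlib 3.10.9.

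The members, the lists and the comparison without F04 and F05 were chosen with earlier results of these data known. Every member is named with all its probe sets; of each list, counts and medians are given, with some of the up to 3 genes that have the smallest p over 7 arrays and a mean above the median brightness. Some genes are in 2 lists (Dcn, Cd55, Vtn, Pdgfrb, C1qa, C1qb and C1qc). Thy1, Cd55 and Dpp4 were named after their values were seen. Alternatives were quantile normalization, centring, eBayes without a trend, a filter at the median brightness, array weights, one-way ANOVA, averaging the probe sets of a gene, a floor at the 20th percentile, F01 in BMAL-/-, each array left out and, added after the control probe sets were seen, the 3' minus 5' signal as a covariate and the arrays with the largest signal left out.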

Additional observations from a re-analysis of the deposited data

How the results depend on the processing

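The groups share no replicate numbers. No paired analysis was possible because of this. Of the 10 genes, 8 were lower over 9 arrays, 4 with array weights and 3 with F02, F03 and F04 left out. The count lower at an unadjusted p under 0.05 was 0 to 3 over 9 arrays when 1 array was left out. Over 7 arrays, where it was 4, it was 2 with F01 in BMAL-/- (Dpt and Clec3b) and 2 with the 3' minus 5' covariate (Dpt and Dpep1). In these 2 settings 4.07% and 1.62% of all probe sets were called lower. With array weights over 9 arrays, Dpep1 (0.77) and Pcolce (0.46) were higher at an unadjusted p under 0.05 in limma. In that setting 23.4% of all probe sets were called higher and 3.98% lower. The count past the adjusted threshold over 7 arrays was 5 with array weights and 0 to 4 when 1 array was left out. The cause was not tested. In the other alternatives run it was 0.

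Pi16, Dpt and Clec3b kept a difference below 0 in every alternative run, over 9 and over 7 arrays. Signs changed for the following. Over 9 arrays, array weights gave 0.17 for Cd34, 0.10 for Gsn, 0.076 for Entpd2 and 0.77 for Dpep1, and F02, F03 and F04 left out gave 0.17 for Cd34, 0.013 for Gsn, 0.082 for Serping1, 0.33 for Entpd2 and 0.069 for Dpep1. The mean of its probe sets gave -0.084 for Pcolce, F01 in BMAL-/- gave 0.20 for Dpep1 and the covariate gave -0.0087 for Pdgfra. Over 7 arrays, array weights gave -0.19 for Pdgfra, -0.058 for Pcolce and 0.014 for Dpep1, the mean of its probe sets -0.22 for Pcolce, and F01 in BMAL-/- 0.12 for Dpep1. Entpd2 went to 0.0051 after quantile normalization, 0.29 with the covariate and 0.42 with F02 and F03 left out. Leaving out 1 array of 9 gave -0.091 to 0.27 for Pdgfra, -0.22 to 0.060 for Entpd2 and -0.34 to 0.16 for Dpep1. Leaving out 1 of 7 gave -0.090 to 0.30 for Pdgfra and -0.33 to 0.090 for Entpd2. Near the floor, as for Clec3b, a difference has no reliable size.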
